A study of Homo sapiens with 3 samples.

Results

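The stretches of the genome around 4 genes of the megakaryocyte and platelet lineage, PF4, PPBP, ITGA2B and ITGB3, were examined for binding of HMGA1 in DAMI cells. Their members are the peaks of 2 deposited peak lists whose summits fell in 3 fixed stretches of the hg19 build, taken by position. The genes were chosen with earlier results of these data known. The stretches were chromosome 4 from 74300000 to 75400000, which holds both PF4 (74846542 to 74847841) and PPBP (74852755 to 74853914), chromosome 17 from 41950000 to 42970000, which holds ITGA2B (42449550 to 42466873), and chromosome 17 from 44830000 to 45890000, which holds ITGB3 (45331208 to 45390077). They held 663 of the 648986 peaks in both lists, 395 of 385953 in the list called over input DNA (the input list) and 268 of 263033 in the list called over histone H3 (the H3 list). DAMI is a human leukaemic line, labelled as coming from myeloproliferative neoplasm and acute myeloid leukaemia. It is generally described as megakaryoblastic and is also recorded as a derivative of the HEL erythroleukaemia line. Sonicated nuclei from cells grown in serum-containing medium, with no treatment named in the labels, gave 3 libraries of 1 sample each. They were a ChIP for HMGA1, a ChIP for H3, and input DNA for which the labels give no antibody. Both lists come from the same HMGA1 library, so a peak found in both is not replicated. With 1 library per antibody there are no tests between conditions. The interval, fold and q-value of every peak are those the authors deposited. Gene expression was not measured in these libraries, so whether DAMI cells express the 4 genes was not analysed here.

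PF4 and PPBP lie side by side in a cluster of chemokine genes and encode proteins that platelets store in their alpha granules. PF4 (platelet factor 4, CXCL4) binds heparin, and PPBP (pro-platelet basic protein, CXCL7) is the precursor of beta-thromboglobulin. ITGA2B and ITGB3 encode the alpha-IIb and beta-3 integrin chains (CD41 and CD61), which pair on the platelet surface as the receptor for fibrinogen. All 4 genes are classic markers of the megakaryocyte lineage, and their promoters are known targets of GATA and ETS family factors. HMGA1 is an architectural chromatin protein whose AT-hooks insert into the minor groove of short A/T stretches.

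The 250 bases before the start are shown for PPBP and ITGA2B, for which a promoter sequence was at hand. No HMGA1 peak of either list lay in the 250 bases before the hg19 start of any of the 4 genes. The sequences come from RefSeq on GRCh38.p14, a later build than that of the peaks, so their coordinates cannot be set beside those of the peaks. The table matched 2 of the 4 genes; PF4 and ITGB3 are named only. Capitals mark unbroken runs of 5 or more A or T bases, on the strand of the gene and in the 5′ to 3′ direction. PPBP lies on the minus strand at chr4:73988191-73988440 and ITGA2B on the minus strand at chr17:44389650-44389899.
PPBP: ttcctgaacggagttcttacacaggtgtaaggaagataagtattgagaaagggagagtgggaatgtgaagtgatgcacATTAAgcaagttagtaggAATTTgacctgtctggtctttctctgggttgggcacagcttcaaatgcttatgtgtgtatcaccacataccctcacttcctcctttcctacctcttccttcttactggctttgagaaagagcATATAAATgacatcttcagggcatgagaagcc
ITGA2B: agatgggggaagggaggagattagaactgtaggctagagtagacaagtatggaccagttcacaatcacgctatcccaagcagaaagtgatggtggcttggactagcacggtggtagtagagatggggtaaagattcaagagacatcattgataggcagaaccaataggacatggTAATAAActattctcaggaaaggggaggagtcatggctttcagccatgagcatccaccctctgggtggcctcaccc

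The PPBP stretch was 56.4% A or T, at or above 80.6% of the 35116 promoters in the table, and the ITGA2B stretch was 51.2%, at or above 70.5% of them. The median promoter was 42.0% A or T. PPBP held 3 runs of at least 5 A or T bases, the longest 8 bases, and 42.7% of promoters held as many. ITGA2B held 1 such run, of 7 bases, and 73.8% of promoters held at least 1. These are descriptions of letters, and A/T content at the peaks themselves was not analysed here.

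HMGA1 peaks were called inside 1 of the 4 genes. ITGB3 had 5 summits in its body in each list, whereas PF4, PPBP and ITGA2B had none in either list, and no peak interval touched those 3 genes. PF4 and PPBP are short, however: at the density of their locus a stretch as long as PF4 (1300 bp) would hold 0.230 input-list summits and one as long as PPBP (1160 bp) 0.206. Of all autosomal windows of these lengths, 83.2% and 84.7% held no input-list summit, and 88.3% and 89.4% held no H3-list summit, so most windows of these lengths were empty as well. ITGA2B, with 17324 bp, would hold 1.21 input-list and 0.713 H3-list summits at the density of its locus, and 24.1% (input list) and 36.9% (H3 list) of autosomal windows of that length were empty. ITGB3, with 58870 bp, would hold 7.16 and 5.66 summits, against the 5 seen in each list. Windows of that length with 5 summits or fewer made up 42.8% (input list) and 61.1% (H3 list) of the autosomes. Windows were laid end to end, and those in a 1 Mb stretch with no input-list peak were left out.

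**Figure D1:**
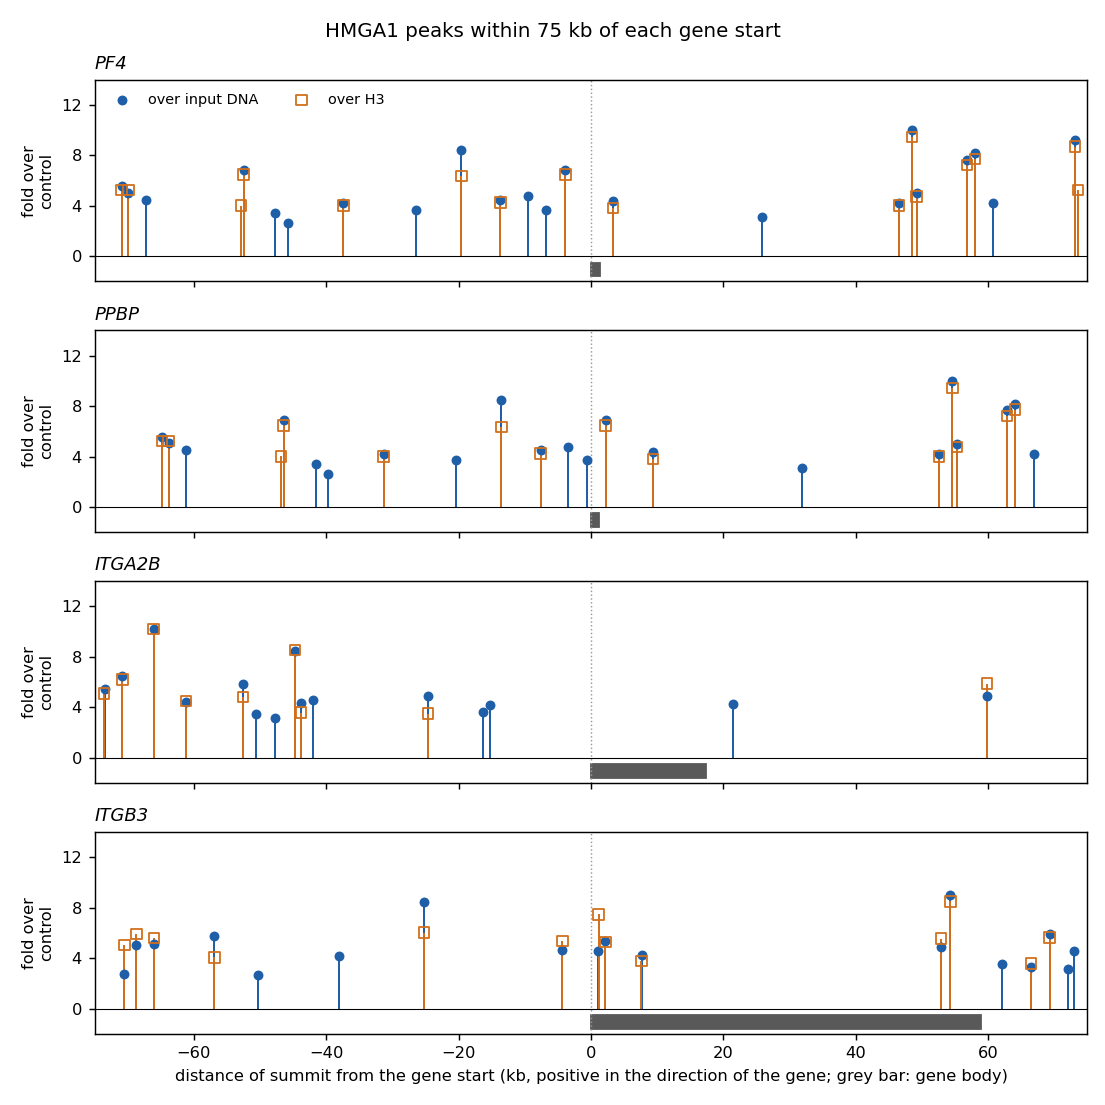
HMGA1 peaks within 75 kb of the start of PF4, PPBP, ITGA2B and ITGB3, with the distance of the summit from the gene start in kb on the horizontal axis (positive in the direction of the gene) and the authors' fold of HMGA1 over the control on the vertical axis. Filled blue circles are peaks over input DNA, open orange squares are peaks over H3, and the grey bar is the gene body. ITGB3 has 5 summits of each list inside its body, in a group near its start and a pair near its end, and the bodies of PF4, PPBP and ITGA2B are empty.

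Around PF4 the nearest HMGA1 sites lay a few kilobases to either side. The nearest summit was 3318 bp past the gene start, beyond its end, in the input-list peak from 74844352 to 74844631. This peak had 23 HMGA1 reads against a control level of 4.45 reads, both worked back from the deposited fold and p-value at the summit, and was 4.40-fold over input. The same site was in the H3 list at 3.82-fold, with an H3 level of 4.0 reads on the scale of that list. Before the start, the nearest site lay between PF4 and PPBP, 3875 bp from the PF4 start and 2198 bp past the PPBP start. The peak was 879 bp wide over input (74851544 to 74852422) and 247 bp over H3 (74851575 to 74851821). Its summit held 25 HMGA1 reads, with folds of 6.88 over input and 6.48 over H3, and both controls were at the lowest level that the caller allows. This lowest level, a genome-wide floor, was 2.78 reads over input and 2.19 over H3. The caller uses the floor wherever the local control is lower, so folds there are set against the floor and not against the local control. At equal HMGA1 reads with both controls at the floor, as at this site, the scaling alone makes the H3-list fold the lower. Small differences between the folds of the 2 lists are therefore not differences between the controls alone.

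PPBP was the gene with the closest summit to its start, but only in the list over input. That summit lay 673 bp before the start, in the peak from 74854497 to 74854702, with 13 HMGA1 reads against 2.78 reads of control and a fold of 3.70. No H3-list peak overlapped it, nor the next site 3476 bp before the start, which had 17 reads and was 4.76-fold over input. Both are low peaks: of all input-list peaks with 8 to 14 reads, 10.4% were also found over H3, and of those with 15 to 19 reads 55.4% were. A higher site stood 13508 bp before PPBP, with 31 HMGA1 reads and folds of 8.46 over input and 6.35 over H3. In the 10 kb centred on the start, PPBP had 3 input-list summits and 1 H3-list summit, and PF4 had 2 in each. Of all autosomal windows of 10 kb, 21.0% held at least 3 input-list summits, 37.2% at least 2, and 37.4% none. For H3-list summits, 24.9% of windows held at least 2, 49.4% at least 1, and 50.6% none.

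ITGA2B lay in a long stretch without HMGA1 peaks. No input-list peak was called from 42445585 to 42481922, a stretch of 36.3 kb that holds the whole gene, and no H3-list peak from 42407215 to 42491374, a stretch of 84.2 kb. Gaps at least as long were 2.57% of those between successive autosomal peaks over input and 1.28% over H3. Long gaps hold more bases than short ones, and these took up 27.5% and 21.3% of all bases between peaks, so a position chosen without regard to HMGA1 would often lie in one. On the upstream side the first input-list summit was 15150 bp before the start, with 18 HMGA1 reads against 3.56 reads of control and a fold of 4.17. The second was 16327 bp before it, at 3.67-fold with 19 reads. Neither was in the H3 list, where the first upstream summit lay 24600 bp from the start at 3.50-fold, with 19 reads. That site was 4.90-fold over input. Past the gene, the first summit was 21377 bp from the start over input (4.29-fold, 19 reads) and 59788 bp over H3 (5.89-fold, 30 reads). At the calls given here the control was above its floor, at 1.11 to 1.62 times that level. The 10 kb centred on the ITGA2B start held no summit, as did the 37.4% (input list) and 50.6% (H3 list) of windows given above.

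ITGB3 carried HMGA1 peaks close to its start, and these were in both lists. The first lay 1125 bp inside the gene, from 45332268 to 45332501 in the input list, with 32 HMGA1 reads. It was 4.57-fold over input, where the control was 6.23 reads (2.24 times the floor). Over H3 it was 7.47-fold, where the control was 2.51 reads on the scale of the H3 list (1.15 times the floor). The fold was higher over H3 than over input at this site. The control levels rest on a few reads each, and the difference was not tested. The second summit, at 2151 bp, had 23 reads and folds of 5.34 and 5.28 over input and H3. The third, at 7632 bp in the input list, had 18 reads and folds of 4.23 and 3.79. A further site 4324 bp before the start had 26 reads and folds of 4.64 and 5.36. The 10 kb centred on the ITGB3 start held 3 summits in each list. At least as many were found in 21.0% of autosomal windows of 10 kb over input and in 12.3% over H3.

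The body of ITGB3 was otherwise bare until near its end. No peak was called over 45.1 kb from 45338895 to 45383954 (input list), which is 76.5% of the gene, and the H3 list had the same gap to within a few bases. Gaps that long were 1.71% of all gaps over input and 3.85% over H3. Their share of all bases between peaks is larger but was not computed. From the ITGA2B gaps given above, it is at most 27.5% over input and at least 21.3% over H3. The last 2 summits lay 52890 and 54333 bp past the start. The second of them, from 45385381 to 45385709, had the highest fold of the 5, with 48 HMGA1 reads and folds of 8.99 over input and 8.51 over H3. It was the 1 of the 5 whose −log10 q-value was among the 20000 highest, in both lists. The first had 24 reads and folds of 4.85 and 5.55. The last summit stood 4.54 kb before the end of the gene. The 5 input-list and 5 H3-list peaks of ITGB3 overlapped one by one.

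Over the wider loci, HMGA1 peaks were most numerous around PF4 and PPBP and fewest around ITGA2B. The PF4 and PPBP locus held 195 input-list peaks, or 177.3 per Mb (95% Poisson interval 153.3 to 204.0), against 132.4 per Mb over all autosomes, a ratio of 1.34 (1.16 to 1.54). Its H3-list density was 112.7 per Mb against 90.9, a ratio of 1.24 (1.03 to 1.48). The ITGA2B locus held 71 input-list peaks, or 69.6 per Mb, 0.526 times the autosomes (0.411 to 0.663), and 42 H3-list peaks, or 41.2 per Mb, 0.453 times (0.326 to 0.612). The ITGB3 locus held 129 and 102 peaks, or 121.7 and 96.2 per Mb, with ratios of 0.919 (0.767 to 1.09) and 1.06 (0.863 to 1.28) whose intervals include 1. Intervals cover counting error only and treat peaks as independent, which neighbouring peaks are not. The autosome densities used whole chromosome lengths, with long stretches without peaks included, which lowers them and raises the ratios. The ratios were not recomputed without these stretches, and the interval of PF4 and PPBP over H3 begins close to 1.

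The loci stood differently against their own chromosomes. Chromosome 4 averaged 208.4 input-list peaks per Mb and 149.9 H3-list peaks per Mb, so the PF4 and PPBP locus was below its chromosome (0.851 and 0.752 times) while above the autosomes. Chromosome 17 averaged 83.0 and 55.9 per Mb, which puts the ITGA2B locus at 0.838 and 0.736 times its chromosome and the ITGB3 locus at 1.47 and 1.72 times. Among autosomal windows of the same length as each locus, 72.9% had fewer input-list peaks than the PF4 and PPBP locus, 23.2% fewer than the ITGA2B locus and 50.8% fewer than the ITGB3 locus. In the H3 list these shares were 69.3%, 25.6% and 61.8%.

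**Figure D2:**
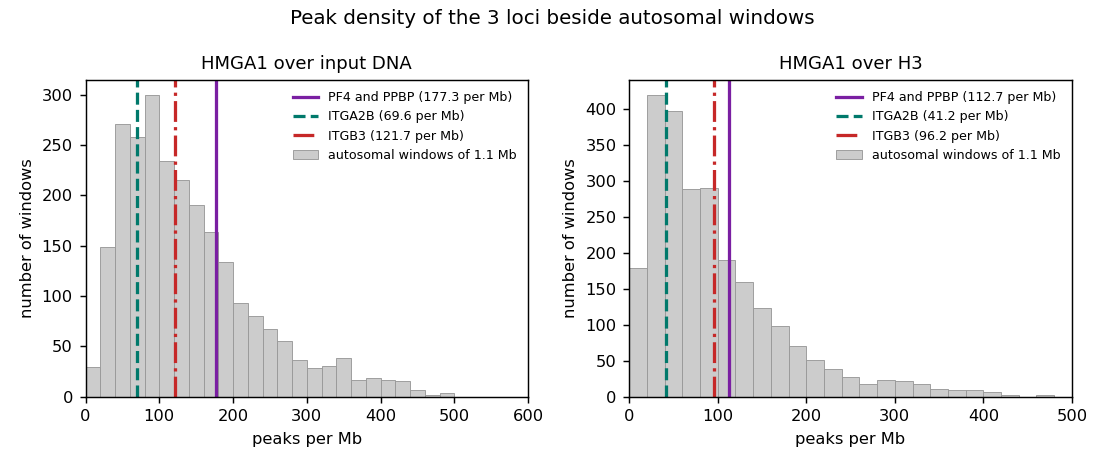
Number of HMGA1 peaks per Mb (horizontal axis) in autosomal windows of 1.1 Mb (grey bars, number of windows on the vertical axis), over input DNA on the left and over H3 on the right. Vertical lines give the PF4 and PPBP locus (177.3 and 112.7 per Mb), the ITGA2B locus (69.6 and 41.2) and the ITGB3 locus (121.7 and 96.2). The lines fall among the grey bars, with fewer input-list peaks in 23.2% to 72.9% of windows of equal length.

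The order of the loci was different for the higher peaks, a count chosen after the data were seen. The PF4 and PPBP peaks were low, with a median of 17 HMGA1 reads at input-list summits (quartiles 13.5 and 22.5) against 19 in the whole input list. ITGA2B peaks had a median of 21 reads (17 and 27) and ITGB3 peaks 24 (18 and 32). Counting only summits with at least 25 HMGA1 reads, in the input list, there were 31.8 per Mb at PF4 and PPBP, 24.5 at ITGA2B and 58.5 at ITGB3, against 37.9 over all autosomes. The ratios were 0.840 (0.585 to 1.17), 0.647 (0.419 to 0.956) and 1.55 (1.18 to 1.98). In the H3 list they were 0.844, 0.624 and 1.53. The interval at PF4 and PPBP includes 1, whereas that at ITGB3 lies above it. With the 20000 highest −log10 q-values in place of a read minimum, the ratios were 0.393, 0.848 and 1.90 over input and 0.393, 0.283 and 1.63 over H3. They rest on 3, 6 and 14 peaks over input and on 3, 2 and 12 over H3. With all peaks but 250 kb to either side of the gene, the ITGB3 ratios were 1.32 over input and 1.61 over H3.

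The control level at the input-list peaks differed between the loci in the order of their median summit reads. At PF4 and PPBP 76.4% of the input-list peaks and 86.3% of the H3-list peaks lay where the control was at its floor, against 36.9% and 42.9% in the whole lists. At ITGA2B 4.23% and 2.38% did, and at ITGB3 1.55% and 5.88%. The median control level was 1.0 times the floor in both lists at PF4 and PPBP, 1.26 times (input) and 1.24 times (H3) at ITGA2B, and 1.44 and 1.28 times at ITGB3, against 1.14 and 1.05 times in the whole lists. The part of the control level in the number and height of the called peaks was not tested.

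**Figure D3:**
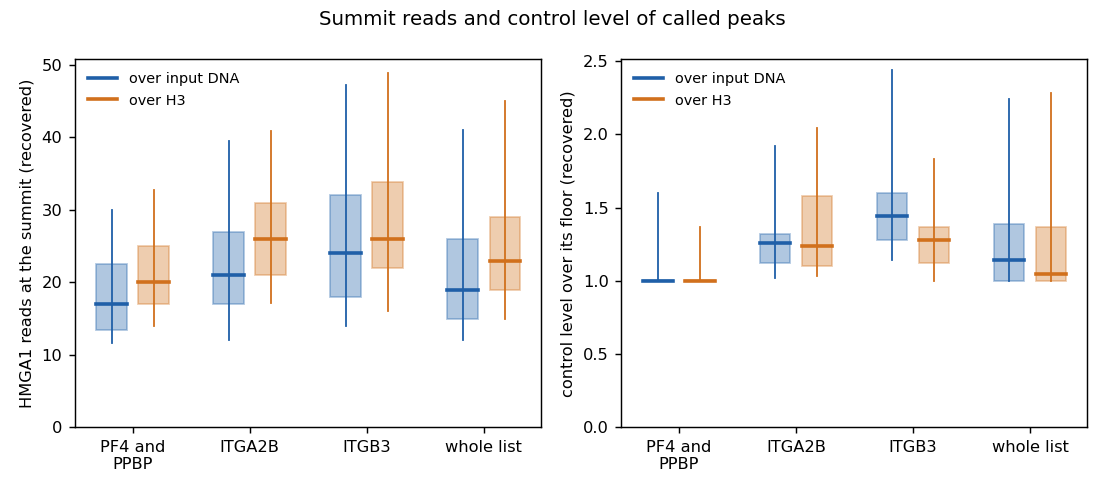
HMGA1 reads at the summit (left) and the control level divided by its genome-wide floor (right), both recovered from the deposited folds and p-values, for called peaks of each locus and of the whole list, over input DNA (blue) and over H3 (orange). Thick lines are medians, boxes quartiles, and thin lines run from the 5th to the 95th percentile. Median summit reads and control levels are lowest at PF4 and PPBP, where the median control is at the floor, and input-list medians of both are highest at ITGB3 (24 reads and 1.44 times the floor).

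Folds, which set HMGA1 against the control, differed little between the loci. Median folds over input were 4.50 at PF4 and PPBP (quartiles 3.70 and 5.82), 4.82 at ITGA2B (3.90 and 6.02) and 4.59 at ITGB3 (3.52 and 6.12), against 4.50 in the whole input list. Over H3 they were 5.25, 5.30 and 5.56, against 5.25 in the whole H3 list. The 95% order-statistic intervals of the 6 medians all include the median of their list except that of ITGB3 over H3, which runs from 5.28 to 6.02. Peaks with a fold of at least 6 over input numbered 47 (24.1%) at PF4 and PPBP, 18 (25.4%) at ITGA2B and 34 (26.4%) at ITGB3, beside 23.1% in the whole list. Over H3 they numbered 41 (33.1%), 14 (33.3%) and 41 (40.2%), beside 31.3%. These shares are near those of the lists; the Wilson 95% interval of the largest, at ITGB3 over H3, runs from 31.2 to 49.9%. The −log10 q-value grows with read number as well as fold. By this value, 3 (1.54%), 6 (8.45%) and 14 (10.9%) of the input-list peaks at PF4 and PPBP, ITGA2B and ITGB3 were among the 20000 highest, beside 5.18% of the whole list. In the H3 list the counts were 3 (2.42%), 2 (4.76%) and 12 (11.8%), beside 7.60%.

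The highest folds of each locus lay at a distance from the 4 genes. The highest fold in the PF4 and PPBP locus was 263.3 kb before PF4, from 75110920 to 75111278 (input list), at 12.1-fold over input and 11.9-fold over H3 with 47 HMGA1 reads. Another site, 239.7 kb before PF4, was the widest peak of the locus in both lists, at 1724 bp (75086149 to 75087872, input list) and 1696 bp, and had folds of 11.4 and 10.7. On the other side of the pair, a site 48.5 kb past the PF4 start was 10.0-fold over input and 9.44-fold over H3 with 37 reads. Around ITGA2B the leading site differed by list. Over input it was 66.1 kb before the gene, from 42532778 to 42533108, at 10.2-fold with 41 reads, and over H3 it was 417.3 kb past the start, from 42049385 to 42049729, at 13-fold with 54 reads. Each was second in the other list, at 10.2-fold over H3 and 10.1-fold over input. Around ITGB3 the leading input-list site was 85.1 kb past the start, beyond the end of the gene, from 45416169 to 45416508, at 11.4-fold with 54 reads. The leading H3-list site was 214.5 kb past the start, from 45545550 to 45545899, at 14.1-fold with 59 reads, and the same site was 11-fold over input.

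**Figure D4:**
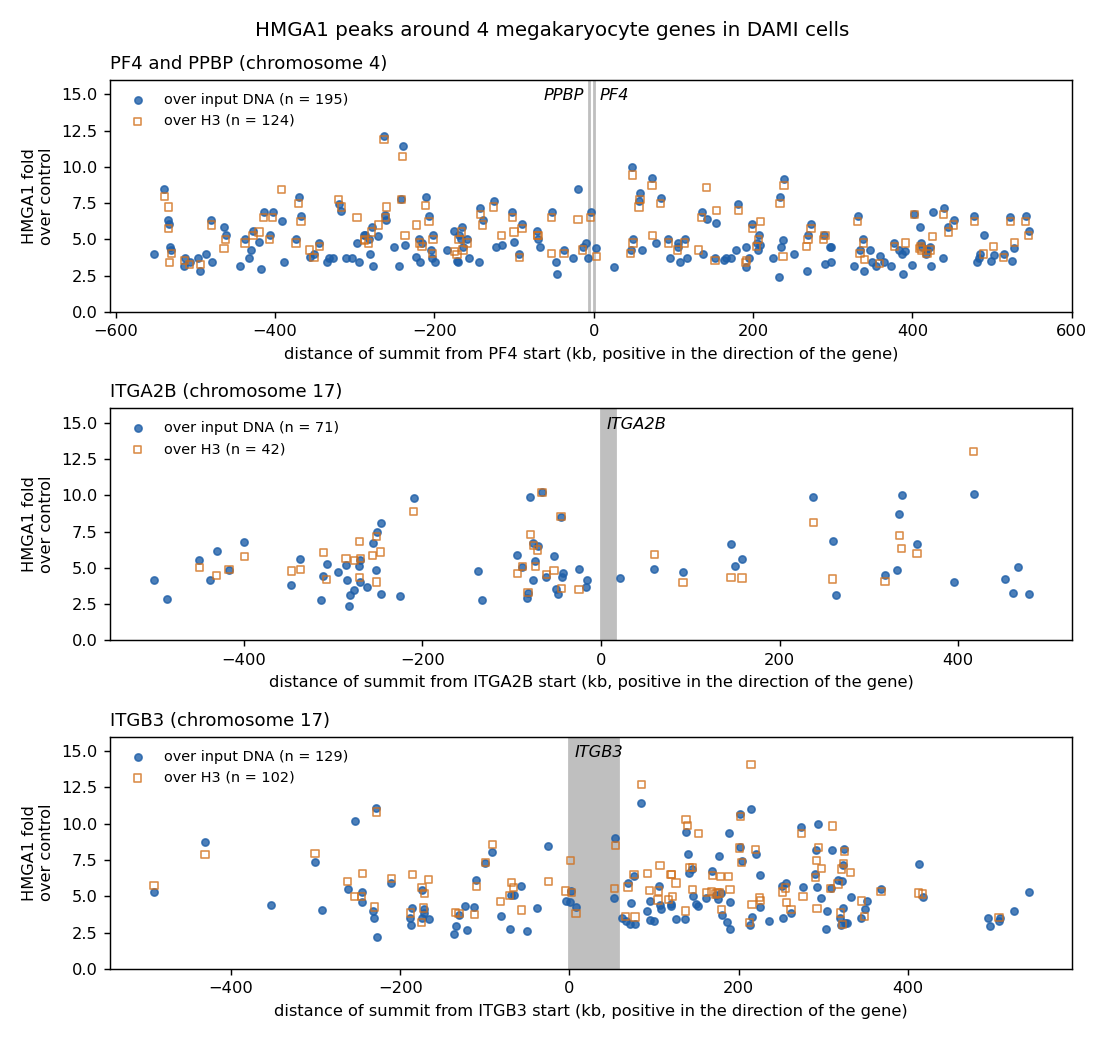
All HMGA1 peaks of the 3 loci, with the distance of the summit from the start of PF4, ITGA2B or ITGB3 in kb on the horizontal axis (positive in the direction of the gene) and the authors' fold of HMGA1 over the control on the vertical axis. Filled blue circles are peaks over input DNA (195, 71 and 129), open orange squares are peaks over H3 (124, 42 and 102), and grey bands mark the genes. Peaks are spread along the PF4 and PPBP locus, gathered upstream of ITGA2B, and densest beyond the end of ITGB3.

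Peaks were unevenly spread on both sides of the integrin genes. At ITGA2B, 13 input-list and 10 H3-list summits lay between 50 and 100 kb before the start, against 2 in each list at the same distance past it. The distance ranges and longest gaps named here were picked after their values were seen. How often autosomal positions have such counts or gaps was not computed. The 100 kb from 42450001 to 42550000, which holds nearly all of ITGA2B and the sequence before it, had the most peaks of the 100 kb windows of the locus (18 and 11). As many were found in 30.9% (input list) and 34.5% (H3 list) of the 27139 autosomal windows of 100 kb, which were not picked as densest. The next protein-coding gene on that side in the RefSeq order is GPATCH8. At ITGB3 the densest 100 kb ran from 45430001 to 45530000, past the end of the gene towards its neighbours EFCAB13 and NPEPPS. It held 26 input-list and 25 H3-list peaks, at median folds of 4.69 and 5.49, and the next 100 kb held 21 and 20. This window was picked as the highest of its locus, whereas the autosomal windows were not picked. As many peaks as in this densest 100 kb were found in 15% (input list) and 7.89% (H3 list) of the autosomal windows, whose median was 11 and 7 peaks. By contrast, between 250 and 500 kb before ITGB3 there were 7 input-list and 5 H3-list summits. The longest gap of the ITGB3 locus in each list was on that side, at 77.7 kb from 44900757 to 44978434 (input list) and 129.5 kb (H3 list). The PF4 and PPBP locus was more even, with 12 to 25 input-list and 6 to 16 H3-list peaks per 100 kb. Its longest gap was 27.8 kb in the input list and 42.9 kb in the H3 list. The H3-list gap, from 74801464 to 74844354, ended at the peak nearest to PF4.

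Almost every H3-list peak of the loci was also an input-list peak, as in the lists as a whole. At PF4 and PPBP 123 of 124 H3-list peaks (99.2%) overlapped an input-list peak by at least 1 bp, at ITGA2B 42 of 42, and at ITGB3 99 of 102 (97.1%), beside 98.3% overall. The 4 exceptions, named after their values were seen, were a chromosome 4 peak from 74716630 to 74716816 (16 HMGA1 reads, 4.26-fold over H3) and chromosome 17 peaks beyond ITGB3 from 45435776 to 45435962 (21 reads, 4.74-fold), from 45447869 to 45448117 (23 reads, 4.77-fold) and from 45453075 to 45453285 (19 reads, 5.0-fold). In the other direction, 61.5% of input-list peaks at PF4 and PPBP (Wilson 95% interval 54.5 to 68.1), 59.2% at ITGA2B (47.5 to 69.8) and 75.2% at ITGB3 (67.1 to 81.8) overlapped an H3-list peak, beside 65.8% of the whole input list. The input-list peaks without a counterpart were lower, with medians of 13, 17 and 16 reads against 20.5, 26 and 26 for those with one, at PF4 and PPBP, ITGA2B and ITGB3 in turn. Of the input-list peaks with at least 25 reads, 35 of 35, 24 of 25 and 61 of 62 were shared, beside 98.5% in the whole list, and with 15 to 19 reads 43 of 66, 5 of 19 and 16 of 35, beside 55.4%.

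Where both lists called a site, they placed it at nearly the same base. As 1 HMGA1 library supplied both lists, close summits and equal HMGA1 reads largely follow from that. They are not independent evidence of a site. Summits lay within 10 bp of each other in 87.8% of the 123 overlapping pairs at PF4 and PPBP, 88.1% of 42 at ITGA2B and 89.9% of 99 at ITGB3. This share was not computed for the whole lists. At all 114050 summits on the same base in the whole lists, the HMGA1 reads recovered from the 2 lists were equal. The same held at the 55, 20 and 49 such summits of the loci. Relative to their floors, the input control exceeded the H3 control by more than 1.5 times at 1, 2 and 8 of these sites (1.82%, 10.0% and 16.3%, beside 11.8% over both whole lists), and the H3 control exceeded the input control by as much at 0, 2 and 2 (0%, 10.0% and 4.08%, beside 4.12%).

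A gene without a peak is not shown to be free of HMGA1, since the lists hold only sites that passed the caller. The lowest summits of the whole lists held 8 HMGA1 reads over input and 11 over H3, and the depth of the libraries is unknown.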

How the data were processed

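Peaks were called with MACS2 on hg19, per the submitters' processing notes. No version, aligner or read filter is given in the sources used here. Deposited were the authors' 2 peak lists of 1 HMGA1 library, with H3 or input as control, each with a fold (ratio over the control), a −log10 p-value, a −log10 q-value, and a score that the authors' file writes as a whole number. The peak names carry another prefix than HMGA1; the deposited lists are named for HMGA1. No q-value is above 0.05.

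HMGA1 reads and control levels were recovered here, taking fold as (reads + 1) over (control + 1) and the p-value as a Poisson tail. In the H3 list reads were first multiplied by 0.787, fitted on 400 peaks. All 385953 and 263033 peaks gave whole reads within 0.001 of the −log10 p-value. The procedure was tested on simulated data. A control within 0.5% of the commonest level was counted as at the floor.

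Depth is unknown beyond these levels. Densities used chromosome lengths to the last peak, with peak-free stretches included, whereas windows in 1 Mb stretches with no input-list peak were left out. Gene bounds are those of the rule, and starts follow strand (PF4, PPBP and ITGA2B minus, ITGB3 plus). Peaks were named by rule: the highest fold per locus and list, the summit nearest each start, any in the bodies of PF4, PPBP or ITGA2B, and the 3 highest folds in the body of ITGB3; other peaks, gaps and stretches were named after their values were seen. The genes and measures were chosen with earlier results of these data known. Lists of other megakaryocyte and chemokine genes were not analysed here, since no annotation of hg19 was used. Alternatives were stricter q-values or folds, the 20000 peaks with the highest −log10 q-value, at least 25 reads (chosen after seeing the data), 250 kb flanks, and other definitions of overlap. Coordinates are 1-based. The tools were scipy 1.17.1, pandas 2.3.3, numpy 2.4.6, matplotlib 3.10.9 and Python 3.11.15.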

Additional observations from a re-analysis of the deposited data

How the results depend on the processing

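There was 1 library per antibody, so no replicate could be left out. No paired analysis was possible because each antibody had a single library. Of 170 recomputed values 117 stayed within the counting interval, the nearest peak or 1.5 times the count of their main value. In each list below, values follow the order PF4 and PPBP, ITGA2B, ITGB3 unless named. Cutoffs on q-value or fold were applied to both lists before overlaps were counted. A peak can therefore lose its counterpart to the cutoff. Restricted to the 20000 peaks with the highest −log10 q-value, densities over the autosomes were 0.393, 0.848 and 1.90 (input list) and 0.393, 0.283 and 1.63 (H3 list). This cut left 3, 6 and 14 peaks (input list) and 3, 2 and 12 (H3 list), and no interval was computed for these ratios. Median folds became 11.4, 9.95 and 9.58 (input list) and 10.7, 11.6 and 9.86 (H3 list). ITGB3 kept 1 summit in its body in each list. The nearest summit was then 48549 bp from PF4 and 54622 bp from PPBP in both lists, 66054 (input list) and 66053 bp (H3 list) from ITGA2B, and 54333 and 54335 bp from ITGB3. Overlap became 100% at PF4 and PPBP in both directions, 33.3% of ITGA2B input-list peaks and 91.7% of ITGB3 H3-list peaks, and the control at ITGA2B 1.13 (input) and 1.06 (H3) times the floor. With at least 25 HMGA1 reads, densities were 0.840 (input list) and 0.844 (H3 list) at PF4 and PPBP, 0.624 (H3 list) at ITGA2B, and 1.55 and 1.53 at ITGB3. With 250 kb flanks the ITGB3 densities were 1.32 and 1.61. At −log10 q-values from 5 upwards, median folds were 5.29 (PF4 and PPBP) and 5.33 (ITGB3) over input and 5.74 (PF4 and PPBP) over H3, overlap was 72.2% and 81.9% of input-list peaks at PF4 and PPBP and at ITGB3, and the nearest summits were 2198 bp from PPBP (input list) and 44654 bp from ITGA2B (H3 list). With a fold of at least 4 these 2 distances were the same and the H3-list distance from PF4 became 3877 bp. Median folds were then 5.29 and 5.51 over input at PF4 and PPBP and at ITGB3, overlap was 80.5% and 83.9% of their input-list peaks and 94.4% and 85.2% of their H3-list peaks. With 50% of both peaks shared, overlap was 87.9% and 90.2% of these H3-list peaks. The causes were not tested.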
